A study of Mus musculus with 15 samples.

Results

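The genes described here are 10 genes of T cells, natural killer (NK) cells and their cytotoxic granules, read in total bone marrow of mice with MLL-AF9 leukemia as a measure of the lymphocytes that lie among the leukemic cells. They were chosen by name: Cd3e, Cd3g, Cd3d, Cd8a, Klrd1, Il2rb, Gzma, Gzmb, Prf1 and Nkg7. All 10 had a row in each of the 4 deposited tables, which held 18075, 18075, 17775 and 19035 genes. The 4 tables covered untreated 36N and 36S, untreated KD and 36S, 36N with and without temozolomide (TMZ), and 36N and 36S with TMZ.

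Every leukemia came from lineage-depleted bone marrow cells of C57BL/6 mice that carried the MLL-AF9 fusion oncogene and a GFP reporter on a retrovirus, and was passed serially through irradiated C57BL/6 recipients (7 and 3 Gy at the first transfer, 3 Gy later). The donors of all groups carried a human GFI1 allele in place of mouse Gfi1, which encodes a repressor of transcription in blood cells. Group 36S (GFI1 KI/KI, libraries 1 to 3) expressed the human gene at the mouse locus, group 36N (GFI1 36N/36N, libraries 4 to 6) expressed its 36N variant, and group KD (libraries 7 to 9) expressed the human gene at 10 to 20%. Leukemic marrow cells of 36S (1 to 3) and 36N (4 to 6) were also exposed to TMZ, a drug that methylates DNA, at 50 µg/ml and for 20 h, which makes 15 libraries in 5 groups of 3. RNA was taken from total marrow without a sort, so lymphocytes could be of the recipient or of the transplant, and their own GFI1 genotype was not measured. No source used here gives the age of the mice. The labels give the number after MLL_AF9 as 1 to 3 for 36S and as 1 for all 36N and KD libraries, and do not say whether mice of a group shared a primary leukemia, so p-values measure only the spread between these libraries. Whether untreated cells were kept in culture for the 20 h of the TMZ exposure is not stated either.

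The T cell receptor passes its signal through the CD3 complex, whose chains CD3 epsilon, gamma and delta (Cd3e, Cd3g, Cd3d) carry activation motifs in their cytoplasmic tails and are the standard markers of T cells. CD8 alpha (Cd8a) is the co-receptor of cytotoxic T cells, and is also made by some dendritic cells. CD94 (Klrd1) pairs with NKG2 chains on NK cells, and the interleukin 2 receptor beta chain (Il2rb) carries interleukin 2 and interleukin 15 signals in NK cells and T cells. Perforin (Prf1) opens the membrane of a target cell, granzymes A and B (Gzma, Gzmb) are proteases that enter through it, and Nkg7 encodes a protein of the granule membrane. Granzyme B is not specific for lymphocytes, since mast cells and some other myeloid cells can make it as well.

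The promoter sequences below are those of granule genes and Cd3e around their RefSeq starts. RefSeq (GRCm38.p6) had a promoter window of 300 bases, 250 before and 50 after the start, for 8 of the 10 genes. Windows for Klrd1 and Il2rb were not used here. The 4 windows printed belong to the pair of genes that rose with TMZ (Gzmb and Nkg7) and to 2 genes listed at 0 in every TMZ-treated 36N library (Gzma and Cd3e). They are written from 5′ to 3′ on the strand of the gene. Capitals mark matches on either strand to a RUNX motif (TGTGGT) or an AP-1 motif (TGANTCA).
Gzmb: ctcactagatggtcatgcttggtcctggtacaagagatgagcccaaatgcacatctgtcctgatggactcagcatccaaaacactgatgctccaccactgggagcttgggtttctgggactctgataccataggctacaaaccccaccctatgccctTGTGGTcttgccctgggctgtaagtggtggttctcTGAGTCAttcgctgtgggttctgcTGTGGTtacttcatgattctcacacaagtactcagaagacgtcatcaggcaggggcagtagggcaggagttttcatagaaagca
Nkg7: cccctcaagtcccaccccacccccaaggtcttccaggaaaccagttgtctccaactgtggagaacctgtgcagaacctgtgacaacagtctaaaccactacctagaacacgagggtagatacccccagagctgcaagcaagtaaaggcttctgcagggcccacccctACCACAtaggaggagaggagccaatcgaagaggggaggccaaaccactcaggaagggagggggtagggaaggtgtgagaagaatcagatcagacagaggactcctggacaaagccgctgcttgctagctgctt
Gzma: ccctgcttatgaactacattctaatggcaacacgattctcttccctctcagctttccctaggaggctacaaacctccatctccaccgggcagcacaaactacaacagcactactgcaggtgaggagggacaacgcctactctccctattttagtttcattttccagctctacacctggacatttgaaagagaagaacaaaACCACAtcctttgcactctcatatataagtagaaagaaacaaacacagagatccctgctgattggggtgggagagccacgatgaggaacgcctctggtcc
Cd3e: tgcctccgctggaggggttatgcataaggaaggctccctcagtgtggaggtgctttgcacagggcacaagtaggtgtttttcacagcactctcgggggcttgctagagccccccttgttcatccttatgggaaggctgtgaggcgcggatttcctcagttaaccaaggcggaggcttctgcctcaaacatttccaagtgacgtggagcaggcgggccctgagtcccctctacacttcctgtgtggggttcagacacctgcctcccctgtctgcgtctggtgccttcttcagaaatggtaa
The Gzmb window lies at chr14:56262285-56262584 on the minus strand, Nkg7 at chr7:43436888-43437187 on the plus strand, Gzma at chr13:113100932-113101231 on the minus strand and Cd3e at chr9:45009562-45009861 on the minus strand. Gzmb had RUNX matches that begin 93 and 34 bases before the start and an AP-1 match 58 bases before it. Nkg7 had 1 RUNX match, 83 bases before the start, and Gzma had 1, 50 bases before it, both on the opposite strand and so read as ACCACA. The printed Cd3e window held neither motif. Among the windows not printed, Prf1 had 1 RUNX match, 130 bases before the start. A GATA motif, meaning GATA with A or T before it and A or G after it on either strand, was found only in Cd3g among the 8 windows, 104 bases before the start. No 2 matches overlapped. Of 32851 promoter windows of the same length, 16.8% held the RUNX motif, 7.81% the AP-1 motif and 29.8% a GATA motif. These matches describe the letters of the windows, and binding was not measured. Distances are counted from the RefSeq start. In GENCODE M21, the annotation used below, the Gzmb gene begins at 56262260, downstream of its whole window, so the Gzmb distances hold for the RefSeq start only.

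In the mm10 annotation (GENCODE M21) the CD3 genes form a cluster on chromosome 9 that spans 40.1 kb. Cd3g (44969572 to 44980431) and Cd3d (44981786 to 44987339) are transcribed away from each other from starts 1355 bases apart, and Cd3e follows at 44998740 to 45009627. Cd3e overlaps the predicted genes Gm48719 on the opposite strand and Gm48720 on its own, so some of its reads could be counted for them. The others are on separate chromosomes or far apart: Cd8a at chromosome 6, 71373427 to 71379173, Klrd1 at chromosome 6, 129591782 to 129598775, Il2rb at chromosome 15, 78479256 to 78495271, Gzma at chromosome 13, 113093825 to 113100981, Gzmb at chromosome 14, 56258838 to 56262260, Prf1 at chromosome 10, 61297833 to 61304680, and Nkg7 at chromosome 7, 43437073 to 43438249.

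Values are normalized counts, that is, gene counts the authors had scaled between libraries. Column totals lay between 11265945 and 24264818, and the read depth behind them is unknown, because at best 29.4 to 70.6% of values under 8 came out as whole reads (within 0.1). None of 10 housekeeping genes was at 0 in any library (lowest value 572), so a member listed at 0 did not stem from an empty column. Gfi1 had a row in 1 of the tables, where it stood at 506, 565 and 367 in untreated 36N and at 723, 504 and 555 with TMZ. For the other tables it was not analysed here, so the KD label was not checked by it. Library 1 of 36S stood apart in late neutrophil genes, whose summed level was 65756 there against 9820 and 5738 in libraries 2 and 3, and results that turn on it are given with and without it. As a check of the cell types, every CD3 chain was above 0 in all 9 untreated libraries, while Ncr1, which defines NK cells, was at or near 0 in most of them (0 to 12.1). Klrb1c, another NK marker, was at 3.55 to 6.70 in 36S, 7.99 to 17.8 in 36N and 7.72 to 16.51 in KD. The untreated marrow thus held RNA of the CD3 chains, and RNA of defining NK genes at low levels. In 36S some CD3 RNA was as low: Cd3g was at 0.972 to 7.04. Klrd1, the member that also defines NK cells, was at 4.03 to 9.96 there. The lowest CD3 value was 0.972, for Cd3g in 36S library 3. Over 36S libraries 1 to 3 Cd3e rose while Cd3g and Cd3d fell, so these values do not settle how many T cells 36S marrow held.

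KD marrow was compared with 36S marrow to read these genes at a reduced dose of GFI1. In KD libraries 8 and 9, Cd3e, Cd3g, Cd8a, Il2rb, Gzma, Gzmb and Prf1 stood several times above every 36S library, and in KD library 7 these genes stood lower. Cd3d, Klrd1 and Nkg7 did not show this. Of the 10 genes, 8 had enough signal to be tested, which asked for 3 or more of the 6 libraries to reach 10. Of these 8, 5 were higher in KD at an adjusted p under 0.05, and none was lower. Over all 13109 genes tested, 11.5% were called in either direction, 6.61% as higher in KD and 4.86% as lower. Cd3g, Gzma and Gzmb passed the filter through the KD libraries only, so their count is not independent of their direction. Log2 fold changes here and below are of log2(normalized count + 1), which understates change in low genes, and adjusted p-values come from limma-trend with Benjamini-Hochberg adjustment over all genes tested. In bulk RNA, fewer cells of a type and less RNA per cell cannot be told apart.

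Cd3e, the CD3 epsilon chain, was at 8.26, 15.8 and 23.7 in 36S libraries 1 to 3 and at 49.8, 168 and 242 in KD libraries 7 to 9. All 3 KD libraries were above all 3 36S libraries, and libraries 8 and 9 were above library 7. The log2 fold change was 3.03 (SE 0.58, adjusted p = 0.0099), a ratio of means of 9.62. Cd3g, the gamma chain, was at 7.04, 3.88 and 0.972 in 36S and at 13.2, 58.0 and 76.8 in KD. Again the groups did not overlap, and the log2 fold change was 3.24 (SE 0.75, adjusted p = 0.024). Cd3d, the delta chain, was at 26.7, 16.4 and 8.03 in 36S and at 32.3, 27.8 and 34.9 in KD. The KD libraries were all above the 36S libraries but by little, library 7 was not the lowest of them, and the log2 fold change of 1.0 (SE 0.46) did not pass (adjusted p = 0.20).

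Cd8a, the CD8 alpha co-receptor, was at 19.6, 21.8 and 21.7 in 36S and at 18.4, 95.5 and 110 in KD. Libraries 8 and 9 were high and library 7 was below all 36S libraries, so the groups overlapped and the log2 fold change of 1.43 (SE 0.59) did not pass (adjusted p = 0.16). Il2rb, the receptor chain for interleukins 2 and 15, was at 68.5, 49.2 and 42.4 in 36S and at 88.3, 267 and 347 in KD. The groups did not overlap, and the log2 fold change was 1.93 (SE 0.45, adjusted p = 0.025). Klrd1, which encodes CD94, was at 9.96, 7.83 and 4.03 in 36S and at 8.57, 13.1 and 14.9 in KD. It was too low for the filter, its groups overlapped, and without the filter its log2 fold change was 0.71 (adjusted p = 0.48).

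Gzmb, granzyme B, was at 9.98, 3.73 and 3.83 in 36S and at 30.3, 47.9 and 75.5 in KD. Every KD library was above every 36S library, with a log2 fold change of 2.95 (SE 0.51, adjusted p = 0.0066). Gzma, granzyme A, was at 5.32, 2.68 and 2.20 in 36S and at 10.2, 54.0 and 86.0 in KD. The groups did not overlap and the log2 fold change was 3.17 (SE 0.75, adjusted p = 0.025). Prf1, perforin, missed the filter, but its KD values of 6.12, 26.6 and 27.7 lay above its 36S values of 3.61, 0 and 1.05. Without the filter its log2 fold change was 3.07 (adjusted p = 0.033), and 6 of the 10 genes were then higher in KD. Over all 18064 genes fitted without the filter, 852 were called as higher in KD and 621 as lower. Nkg7, the granule membrane protein, was at 92.8, 29.0 and 13.5 in 36S and at 23.4, 99.9 and 92.5 in KD. Library 1 was as high as KD libraries 8 and 9, and the log2 fold change was 0.83 (SE 0.71, adjusted p = 0.51), or 1.55 without library 1 (adjusted p = 0.16).

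**Figure D1:**
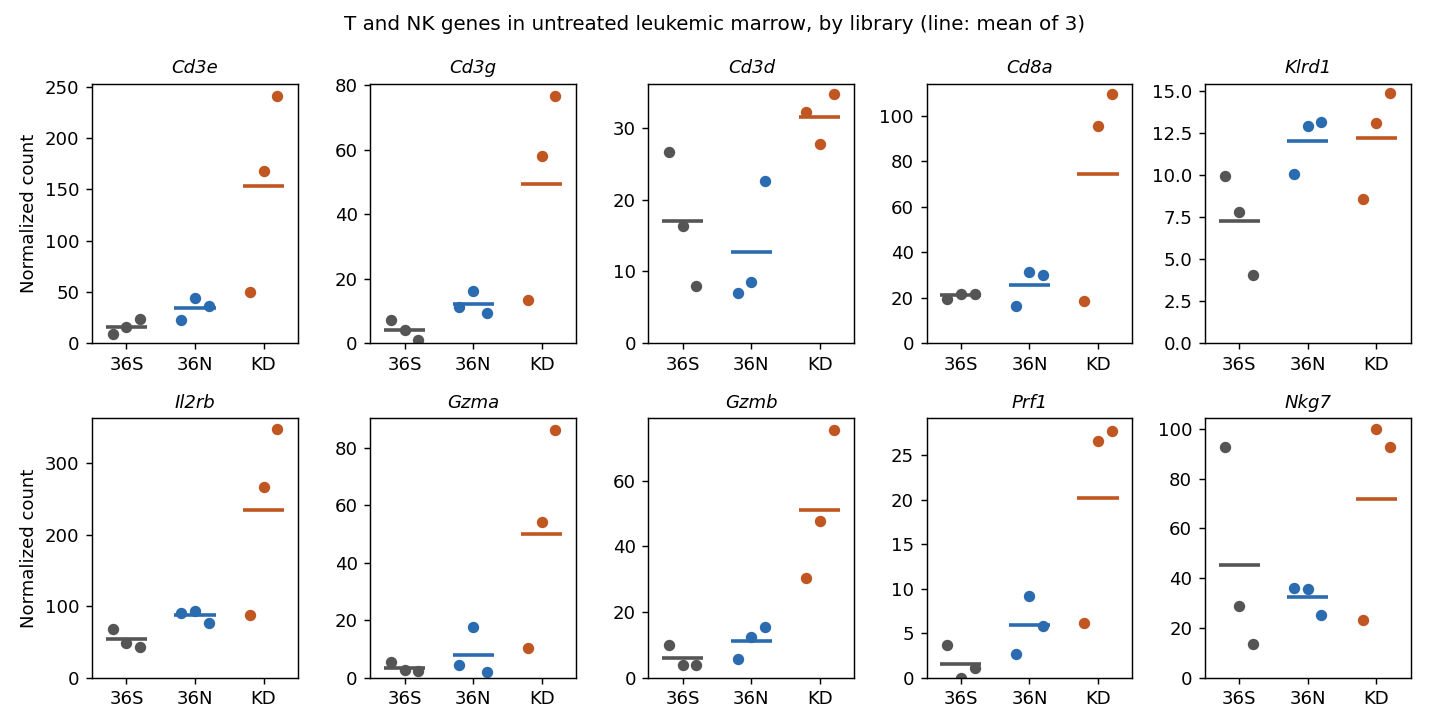
Normalized counts (vertical axes, each starting at 0) of the 10 genes in the 9 untreated libraries, with 36S, 36N and KD along the horizontal axis; points are libraries in number order and lines are means of 3. In 9 of the 10 panels the lowest KD point is library 7, and for Cd3e the other KD libraries stand at 168 and 242 against 8.26 to 23.7 in 36S.

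In 7 of the 10 genes (Cd3e, Cd3g, Cd3d, Il2rb, Gzma, Gzmb and Prf1) all KD libraries were above all 36S libraries, which held for 13.7% of all genes of the table, and in none were they all below (13.3%). KD library 7 was the lowest KD library for 9 of the 10, against 31.1% of the 13985 genes that reached 10 in any KD library, and was still above every 36S library for 7. The summed level of the 10 genes was 252, 150 and 122 in 36S and 281, 858 and 1107 in KD. The number of genes called depended on the libraries. It was 5 without 36S library 1, 2 without 36S library 2 or 3, and 3, 1 and 0 when KD libraries 7, 8 and 9 were left out in turn. Leaving out a KD library also took genes out of the test, since the filter asks for 3 libraries. With a filter on 2 libraries, chosen after seeing the data, the counts were 7, 2 and 1 when KD libraries 7, 8 and 9 were left out in turn.

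Other genes of the T and NK cell system were read from 4 lists of 69 genes. Of the 36 tested, 10 were higher in KD and 2 were lower, with a median log2 fold change of 0.68 against -0.01 over all genes. Over all genes tested, 6.61% were called as higher in KD and 4.86% as lower. The largest was Ccl5, a chemokine of T and NK cells, at 30.6, 26.7 and 10.6 in 36S and at 121, 596 and 750 in KD (log2 fold change 4.13, SE 0.64, adjusted p = 0.0038). It followed the members in that libraries 8 and 9 were far above library 7. Eomes, a transcription factor of NK and CD8 T cells, was at 0, 1.80 and 2.81 in 36S and at 13.6, 27.9 and 34.01 in KD (log2 fold change 3.48). Because Eomes passed the filter through the KD libraries only, its call is not independent of its direction. Sh2d2a, a T cell adaptor, reached 24.1, 117 and 193 in KD against 5.65, 15.3 and 6.20 (3.17), and Cd7 reached 21.7, 103 and 132 against 19.0, 12.2 and 7.48 (2.38). These 3 also had library 7 as the lowest KD library.

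In some other called genes the KD libraries stood closer together. Klrk1, the activating receptor NKG2D, was at 38.6, 18.7 and 27.1 in 36S and at 163, 206 and 143 in KD (log2 fold change 2.60, SE 0.31, adjusted p = 0.00092). S1pr5, a sphingosine receptor of NK cells and patrolling monocytes, was at 11.9, 13 and 25.1 and at 80.3, 135 and 123 (2.73). Ikzf3, which encodes the lymphoid factor Aiolos, was at 63.1, 26.3 and 33.9 and at 192, 197 and 244 (2.42). KD library 7 was the lowest KD library for S1pr5 and Ikzf3 but not for Klrk1. The 2 genes that were lower in KD were Bcl11b, a T cell factor, at 95.6, 121 and 71.4 in 36S and at 25.9, 39.9 and 48.0 in KD (-1.33), and Il18rap, a chain of the interleukin 18 receptor, at 288, 203 and 197 and at 112, 143 and 84.5 (-1.02). The constant regions of the T cell receptor that were tested did not pass. The log2 fold change was 2.65 for Trac (SE 0.78, adjusted p = 0.059) and 1.33 for Trbc2 (adjusted p = 0.078). For Trdc it was 0.19 (adjusted p = 0.82). Trac was at 21.6, 13.4 and 2.41 in 36S and at 23.0, 84.4 and 132 in KD.

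Genes of other cell types differed between these groups too, where 6.61% of all genes tested were called as higher in KD and 4.86% as lower. Of 9 tested B and plasma cell genes, 3 were lower in KD (Igkc, Igha and Jchain), and none was higher. The immunoglobulin light chain Igkc was at 2565, 5411 and 2696 in 36S and at 645, 629 and 367 in KD. Of 8 macrophage genes, 3 were higher (Adgre1, Apoe and Vcam1), and their list summed to 1402 to 2062 in 36S and to 4269 to 5782 in KD. Mast cell and basophil genes summed to 1711 to 2800 and to 2901 to 3437, with Cpa3 and Gata2 higher and Kit and Ms4a2 lower in KD. The part of these cells in the T and NK gene values was not tested.

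**Figure D2:**
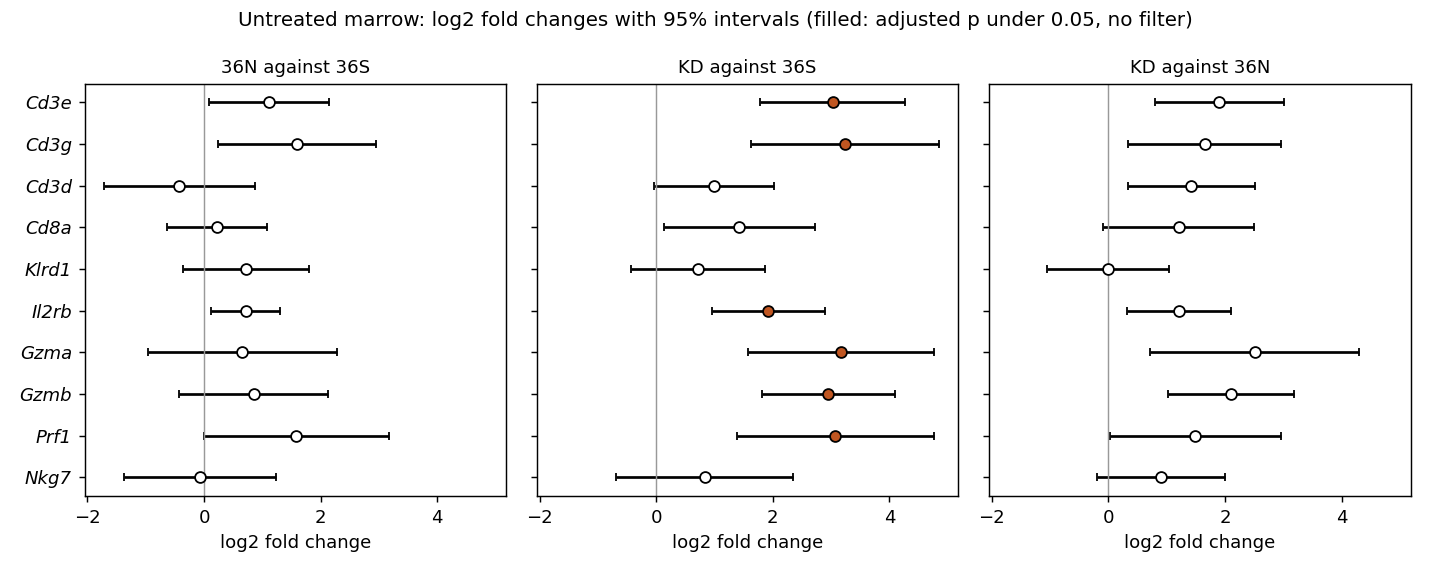
Log2 fold changes (horizontal axes) of the 10 genes in untreated marrow from fits without a filter, so that all 10 have a value; bars are 95% intervals from limma-trend over 3 libraries a group, and filled points have an adjusted p under 0.05. There are 6 filled points for KD against 36S and none for 36N against 36S or KD against 36N. Over all 18064 genes fitted for KD against 36S, 852 were called as higher in KD and 621 as lower.

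The 36N variant was compared with 36S in untreated marrow in the same way. Of the 10 genes, 6 were tested and 0 were called by limma-trend in either direction, against 4.56% of all 13137 genes tested, 2.55% as higher in 36N and 2.01% as lower (599 called, and 2679 at an unadjusted p under 0.05). Without the filter all 10 were fitted and 0 were called. Of the members tested, 2 had an unadjusted p under 0.05. Cd3e, the CD3 epsilon chain, was at 22.6, 44.2 and 36.2 in 36N against 8.26, 15.8 and 23.7 in 36S. The highest 36S library was above the lowest 36N library, and the log2 fold change was 1.12 (95% interval 0.09 to 2.15, adjusted p = 0.21). Il2rb was at 90.6, 93.9 and 76.5 in 36N against 68.5, 49.2 and 42.4. The groups did not overlap, but the log2 fold change of 0.72 (95% interval 0.14 to 1.29) did not pass (adjusted p = 0.16).

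Cd3g, Klrd1 and Il2rb had all 36N libraries above all 36S libraries, 3 genes of 10, against 11.2% of all genes of the table, and no member had them all below (11.8%). Cd3g was at 11.1, 16.1 and 9.18 in 36N, under the filter, and Klrd1 was at 10.0, 12.9 and 13.2 (log2 fold change 0.72, adjusted p = 0.44). The 36N values of the other genes overlapped those of 36S. Cd3d was at 6.96, 8.51 and 22.7 in 36N, and Cd8a at 16.2, 31.0 and 29.8, with log2 fold changes of -0.42 and 0.22. Among granule genes, Gzma was at 4.49, 17.6 and 1.85, Gzmb at 5.65, 12.4 and 15.5 and Prf1 at 2.64, 9.15 and 5.84. Nkg7 was at 36.2, 35.5 and 25.0, and its log2 fold change of -0.07 became 0.65 without 36S library 1, the library with the high neutrophil genes. Neither value passed the test. The summed level of the 10 genes was 207, 281 and 236 in 36N against 122 to 252 in 36S.

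In the 4 further lists, 30 genes were tested, 3 were higher in 36N and 2 were lower, with a median log2 fold change of 0.21 against -0.01 over all genes. Over all genes tested, 2.55% were called as higher in 36N and 2.01% as lower. S1pr5 was at 70.5, 143 and 90.9 in 36N against 11.9, 13 and 25.1 in 36S (log2 fold change 2.55, SE 0.38, adjusted p = 0.0074). Klrk1 was at 141, 109 and 119 against 38.6, 18.7 and 27.1 (2.14, SE 0.30, adjusted p = 0.0057). For both, every 36N library was above every 36S library, and both had also been called in KD, a comparison that shares the 36S libraries. Cd28, a co-stimulatory receptor of T cells, was at 233, 226 and 159 against 115, 98.5 and 80.3 (1.06). The genes that were lower were Bcl11b (43.0, 29.6 and 39.9 against 95.6, 121 and 71.4) and Cst7, a cystatin of cytotoxic and myeloid granules (441, 347 and 247 against 687, 635 and 569).

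KD was also set against 36N, which was possible because the 36S values of both untreated tables were identical and all untreated libraries were therefore on 1 scale. Of 9 genes tested, 1 was called, Gzmb, with a log2 fold change of 2.10 (SE 0.49, adjusted p = 0.048), where 3.24% of 13118 genes were called, 2.03% as higher in KD and 1.21% as lower. Its KD values of 30.3, 47.9 and 75.5 were all above its 36N values of 5.65, 12.4 and 15.5. This call rested at the threshold: it was lost without each 36N library and without KD library 7 or 9 (adjusted p from 0.051 to 0.26), and it held without KD library 8. Cd3e (log2 fold change 1.91, adjusted p = 0.082) and Cd3d (1.42, adjusted p = 0.16) also had all KD libraries above all 36N libraries. That makes 3 genes, against 10.7% of all genes in this direction, and no member had them all below (9.44%). The other log2 fold changes were 2.51 for Gzma, 1.65 for Cd3g, 1.21 for Il2rb, 1.20 for Cd8a, 0.90 for Nkg7 and -0.01 for Klrd1, and none passed. Without KD library 7, Cd3e, Cd3g, Cd8a, Il2rb and Nkg7 were called as higher in KD (5 genes) and Gzmb was not (adjusted p = 0.054). Over all 12956 genes tested in that fit, 133 were called as higher in KD and 104 as lower. In the further lists 1 of 40 genes was called, Ikzf3, which was higher in KD (2.59, adjusted p = 0.0019).

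When each library was brought to the same total, the share of called genes that were higher in KD moved from 57.6% to 39.3% against 36S and from 62.6% to 49.6% against 36N, and the median of all genes shifted from -0.01 to -0.13 in both. Against 36S, 4 members were called as higher under this scaling (Cd3e, Cd3g, Il2rb and Gzmb), and Gzma no longer passed the filter. The call of Gzmb against 36N was lost (log2 fold change 1.99, adjusted p = 0.074).

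TMZ was compared with no drug in 36N cells, the only genotype for which a table used here holds both. With TMZ Cd3e, Cd3g, Cd8a, Klrd1 and Il2rb, which encode receptor chains of T and NK cells, stood between 0 and 4.64, while 2 granule genes, Gzmb and Nkg7, stood far above their untreated level. Of 8 genes tested, 2 were higher with TMZ, 5 were lower and 1 did not pass. This has to be read against a background in which 69.7% of 14390 genes were called, 36.3% as higher and 33.5% as lower. The 5 genes called as lower (Cd3e, Cd3g, Cd8a, Klrd1 and Il2rb) passed the filter through the untreated libraries only, so their count is no support for a direction.

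Cd3e was at 34.7, 68.0 and 55.9 in untreated 36N and was listed at 0 in all 3 TMZ libraries. No fold is given for it against a group at 0, and its fitted log2 difference of -5.70 depends on the added 1. Cd3g was at 15.8, 22.7 and 13.1 untreated and at 0, 0 and 1.01 with TMZ (log2 fold change -3.81, SE 0.45, adjusted p = 0.00019). Cd3d, by contrast, was at 11.3, 13.8 and 36.9 untreated and at 1.44, 0.706 and 18.04 with TMZ. TMZ library 6 was above untreated libraries 4 and 5, so the groups overlapped and the log2 fold change of -2.14 (SE 0.93) did not pass (adjusted p = 0.072). Without TMZ library 6 it passed at -3.22.

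Cd8a was at 25.1, 48.1 and 46.4 untreated and at 4.64, 2.62 and 0 with TMZ (log2 fold change -3.85, SE 0.67, adjusted p = 0.0014). Il2rb was at 138, 143 and 117 untreated and at 0.694, 0 and 0 with TMZ (-6.81, SE 0.37, adjusted p = 4.9e-06). Klrd1 was at 13.5, 17.3 and 17.8 untreated and at 0.817, 0 and 1.69 with TMZ (-3.33, SE 0.46, adjusted p = 0.00043). For these receptors every TMZ library was below every untreated library. Of the 2 genes that define NK cells besides Klrd1, Klrb1c was at 31.6, 22.1 and 14.2 untreated and at 0.473, 0.469 and 1.97 with TMZ. Ncr1 was low in both groups, at 7.92, 4.54 and 0 untreated and at 0.650, 3.84 and 4.70 with TMZ, and the groups overlapped.

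The granule genes split. Gzmb was at 8.27, 18.2 and 22.7 untreated and at 5912, 7845 and 8248 with TMZ (log2 fold change 8.81, SE 0.35, adjusted p = 1.6e-06), a ratio of means of 447. Nkg7 was at 53.1, 52.1 and 36.9 untreated and at 446, 704 and 766 with TMZ (3.71, SE 0.28, adjusted p = 2.1e-05), a ratio of 13.5. In both, the TMZ libraries were far above the untreated ones, and library 4 was the lowest of the TMZ libraries. Gzma, the other granzyme, was at 7.06, 27.7 and 2.93 untreated and was listed at 0 in all TMZ libraries. It missed the filter, and without the filter it was called as lower (adjusted p = 0.0054). Prf1, perforin, was at 4.06, 14.1 and 9.03 untreated and at 6.68, 2.51 and 3.44 with TMZ, which overlapped. Its log2 fold change without the filter was -0.89 (adjusted p = 0.20).

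**Figure D3:**
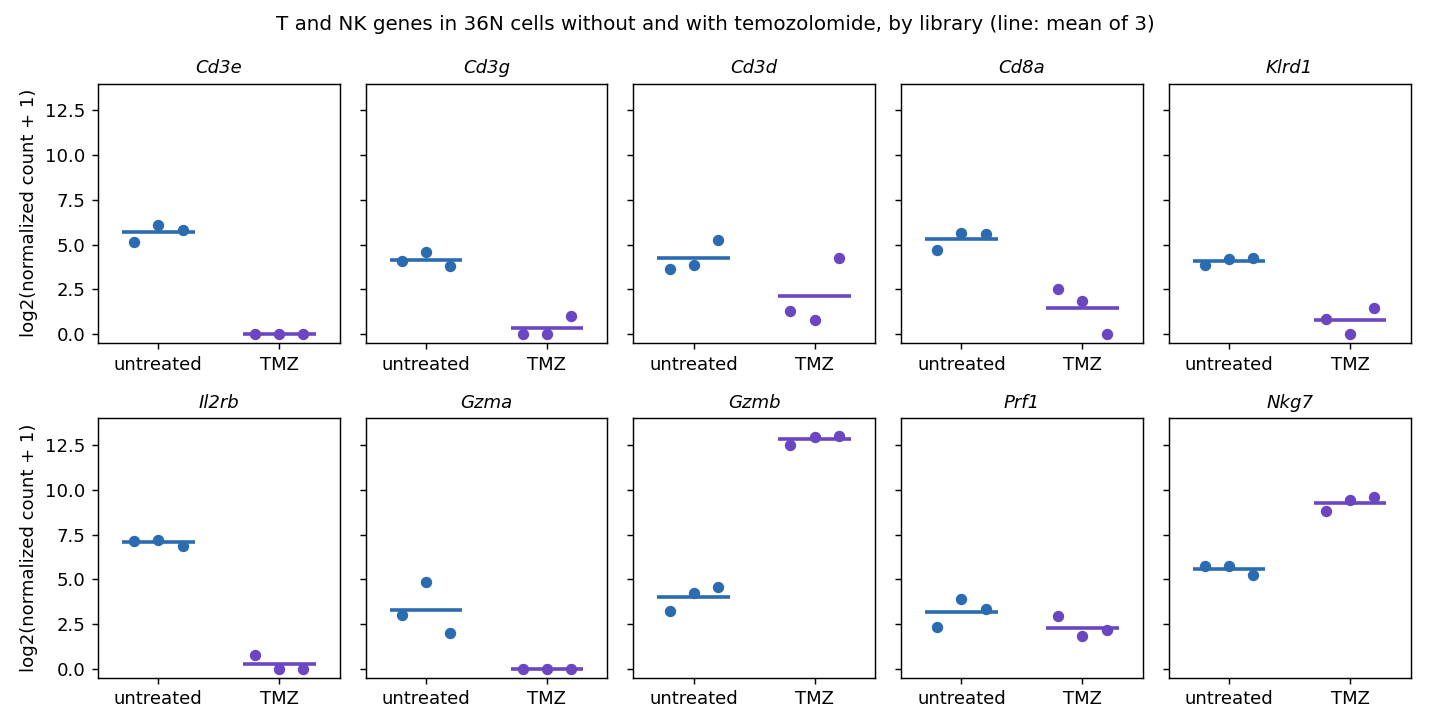
The 10 genes in 36N cells without and with TMZ, as log2(normalized count + 1) on the same vertical axis in every panel; points are libraries 4, 5 and 6 and lines are means of 3. Gzmb and Nkg7 are the panels in which all TMZ points lie above the untreated ones, and in Cd3e and Gzma all TMZ points lie at 0.

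Over all 10 genes, Gzmb and Nkg7 had all TMZ libraries above all untreated ones (35.3% of all genes of the table did), and Cd3e, Cd3g, Cd8a, Gzma, Klrd1 and Il2rb had them all below (33.9%). Without Gzmb and Nkg7 the members summed to 250 to 355 in untreated libraries and to 5.84 to 24.2 with TMZ. Leaving out untreated library 4, 5 or 6 left 2 genes called, since a gene at 0 with TMZ then no longer has 3 libraries over the minimum. With a filter on 2 libraries, chosen after seeing the data, 7 or 8 genes were called whichever library was left out. With a minimum of 50 in place of 10, only 3 members could be tested and all 3 were called. Over all 11987 genes tested at that minimum, 4558 were called as higher and 3973 as lower.

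The further T and NK lists held genes called in both directions in the same comparison. Of 38 genes tested, 11 were higher with TMZ and 16 were lower, with a median log2 fold change of -0.92 against 0.06. Over all genes tested, 36.3% were called as higher and 33.5% as lower. S1pr5, Klrk1 and Cd5, among others, passed the filter through the untreated libraries only. The count of lower genes and the median are therefore no support for a direction. Among receptors and adhesion molecules, S1pr5 was at 103, 208 and 133 untreated and at 1.502, 0 and 1.55 with TMZ (log2 fold change -6.26). Klrk1 was at 219, 168 and 186 and at 2.99, 6.23 and 0 (-5.96), and Cd5, an inhibitory receptor of T cells, was at 58.7, 55.4 and 157 and at 0.715, 0.693 and 1.46 (-5.39). Cd2, an adhesion receptor, and the T cell factor Bcl11b were also lower (-4.18 and -4.70). The co-receptor Cd4, the regulatory T cell factor Foxp3 and Lef1 were lower as well (-4.02, -3.01 and -2.54). Trbc2, a constant region of the T cell receptor, was at 8.51, 30.4 and 8.80 untreated and was listed at 0 in every TMZ library, as was Tbx21, which encodes T-bet. Both were too low to be tested.

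Among the genes that were higher, Lat, the membrane adaptor that the T cell receptor uses and that mast cells use below the IgE receptor, was at 18.2, 42.5 and 12.3 untreated and at 769, 1375 and 1923 with TMZ (log2 fold change 5.83, SE 0.50, adjusted p = 3.7e-05). Cd226, an adhesion receptor of T, NK and some myeloid cells, was at 17.3, 7.12 and 13.1 and at 387, 419 and 570 (5.15). In both, the TMZ libraries were above the untreated ones by more than their spread. Il18rap (3.43), Il7r (3.42), Gata3 (2.84), Cd96 (2.73), Cst7 (2.17), Txk (1.79), Ikzf3 (1.69) and Il12rb2 (1.04) were higher as well. Ccl5 was lower (-1.76).

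Marker genes of other cells differed in this comparison too. Of 11 mast cell and basophil genes tested, 11 were higher with TMZ, with a median log2 fold change of 9.56. Over all genes tested, 36.3% were called as higher and 33.5% as lower. Their summed level was 1817, 945 and 628 in untreated libraries and 113755, 229284 and 308948 in TMZ libraries 4, 5 and 6. Library 4 was the lowest, as it was for Gzmb and Nkg7. It was also the lowest for the sum of the further T and NK lists (8082, 11650 and 14691), which include Lat. Other lists differed in this order: library 4 was the lowest for dendritic cell genes (929, 1584 and 1541). Library 5 was the lowest for late neutrophil genes (22169, 5292 and 26262). A link between these values was not tested. Fcer1a, the IgE receptor alpha chain that defines these cells, was at 0 in all untreated libraries and at 6202, 18388 and 20376 with TMZ. Untreated libraries listed 4 of the 12 genes of this list at 0, Fcer1a among them. Such genes could pass the filter only through the TMZ libraries, so the count of higher genes is no support for a direction. B and plasma cell genes went the other way: 7 of 8 tested were lower and none was higher. Igkc was at 3422, 2325 and 4372 untreated and at 0, 0 and 5.84 with TMZ, and passed the filter through the untreated libraries only. Of 10 macrophage genes, 8 were higher and 1 was lower. The part of these cells in the values of Gzmb, Nkg7 and Lat was not tested. For the genes that were lower with TMZ, fewer cells and less RNA per cell cannot be told apart.

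**Figure D4:**
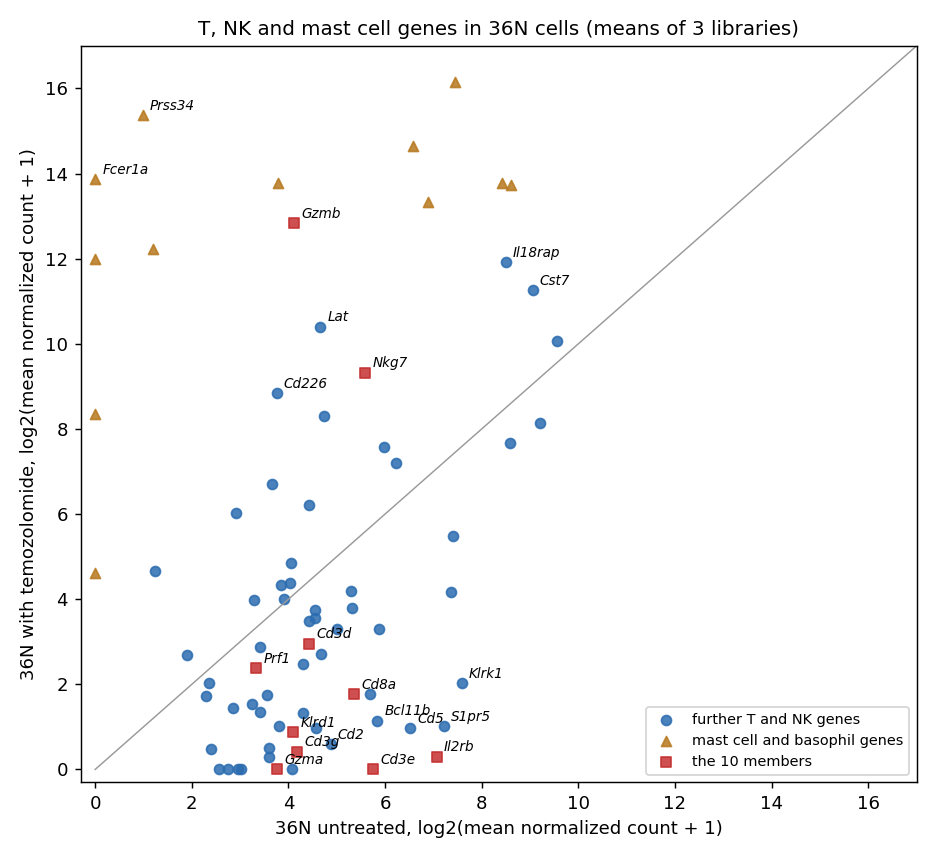
Mean normalized count of 3 libraries in untreated 36N (horizontal) and in 36N with TMZ (vertical), both as log2(mean + 1), for the 10 members (squares), further T and NK genes (circles) and mast cell and basophil genes (triangles); the line marks equal values. Gzmb and Nkg7 lie above the line with Lat, Cd226 and the mast cell genes, and Cd3e, Gzma, Il2rb, S1pr5 and Klrk1 lie near the bottom axis.

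With TMZ in both genotypes, 36N was compared with 36S to ask whether the treated cells differed. Cd3e and Gzma were listed at 0 in all 6 libraries. Gzmb was at 8015, 12338 and 13015 in 36S and at 9006, 11843 and 12312 in 36N, and the groups overlapped almost wholly (log2 fold change 0.01, 95% interval -0.55 to 0.57). Nkg7 was at 952, 1462 and 1470 in 36S and at 662, 1037 and 1115 in 36N (-0.47, 95% interval -1.09 to 0.15). Prf1 was at 14.7, 11.3 and 7.36 in 36S and at 10.7, 3.98 and 5.38 in 36N (-0.71, 95% interval -2.03 to 0.61). None of these 3, the only members with enough signal to test, was called by limma-trend (adjusted p = 0.9998 for each). Over all 14246 genes 0 were called (0.0%), and 191 had an unadjusted p under 0.05, none of the 3 among them. The groups overlapped for all 10 members, where 3.0% of all genes of the table had 36N wholly above 36S and 2.35% wholly below.

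Cd3g, Il2rb, Klrd1 and Cd8a stood between 0 and 7.35 in both treated groups. Cd3g was at 0 in all 36S libraries and at 0, 0 and 1.15 in 36N, Il2rb at 0, 4.15 and 0 and at 0.783, 0 and 0, and Klrd1 at 3.79, 0 and 3.28 and at 1.49, 0 and 3.02. Cd8a was at 5.36, 5.92 and 1.16 in 36S and at 7.35, 4.12 and 0 in 36N. Cd3d went higher, at 1.75, 19.5 and 1.16 in 36S and at 1.37, 0.668 and 16.9 in 36N, with 1 high library in each genotype. The high libraries were 36S library 2 and 36N library 6, and neither was high in Cd3e or Cd3g. In the further lists 28 genes were tested and 0 were called. Mast cell and basophil genes summed to 153688, 380248 and 415786 in 36S and to 166636, 339221 and 456543 in 36N. The library with the lowest sum in each genotype had the lowest Gzmb and Nkg7. It also had the lowest sum of the further T and NK lists (14136 in 36S and 14017 in 36N), and a link between these values was not tested.

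The difference between genotypes was also compared between TMZ and no drug, as an interaction in which the scale of each table cancels. Nkg7 was the only member tested (interaction -0.40 on the log2 scale, 95% interval -1.97 to 1.17, adjusted p = 0.96), and 0.333% of 12324 genes were called, 0.235% with a positive and 0.0974% with a negative interaction (41, and 861 at an unadjusted p under 0.05). Without the filter 8 members were fitted and 0 were called by limma-trend. Their largest differences were -2.29 for Prf1 (adjusted p = 0.59), whose interval of -4.22 to -0.35 excludes 0 before adjustment, and -1.23 for Il2rb (adjusted p = 0.90).

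How the genes varied within groups was described over the 9 untreated libraries, after the mean of each group was removed. Among 13552 genes, those with the highest Pearson r to Cd3e were Zfp169 (0.987), Kcnh7 (0.985), Dennd3 (0.966), Slc10a2, Sfi1, Rgs3, Olfr596, Vmn1r65, Kcnq3 and Rbl2 (0.947). None of them was on a T or NK list. Of the members, Cd8a was closest to Cd3e (r 0.884, rank 73), followed by Il2rb (0.603) and Gzma (0.566), and Cd3d was at -0.236 (rank 7818). For Gzmb the 5 closest genes were Mcc (0.987), Cd55 (0.976), Il1f9 (0.964), Enah (0.960) and Zfp503 (0.956), and Klrd1 was the closest member (0.772). The points share their libraries, and KD library 7 carries much of the spread in the KD group, so these values describe 9 libraries and nothing more. Cd3d was thus the CD3 gene for which KD library 7 was not the lowest and for which the TMZ groups overlapped.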

How the data were processed

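RNA was measured by sequencing in 15 libraries of total leukemic marrow (poly(A) selection, per the labels' protocols). The authors deposited 4 tables of normalized signal, that is, counts per gene scaled between libraries. Salmon, DESeq2 and the mm10 build are named, without versions, in the submitters' processing notes, and no source used here gives further steps. The 36S values of the untreated tables were identical (difference 0), so KD and 36N could be joined, while other tables were compared only within themselves.

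Whole reads could not be recovered, so no count model was used. Values were analysed as log2(value + 1). Genes that reached 10 in 3 or more libraries of a comparison were fitted with limma-trend (limma 3.58.1, R 4.3.3) on its pair of groups. P-values were adjusted by Benjamini-Hochberg over every gene fitted, and the threshold was 0.05. The interaction used 4 groups and genes that passed in both tables. The fits were tested on simulated data. No source used here says whether counting used strand, so overlapping genes may share reads.

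The members, the lists and the tests were chosen with earlier results of these data known. Named genes were all 10 members and, of the 4 further T and NK lists (69 genes), up to 8 with the largest change among those called. A called gene of these lists is counted but not reported here by name. Trac, Trbc2, Tbx21, Cd4, Foxp3, Lef1, Ncr1, Klrb1c, the remaining called genes of the T and NK lists, and the markers of other cells were named with their values known. The other settings tried were pseudocounts of 0.5 and 5, fits with no filter, a minimum of 50, equal totals, quantile normalization, no variance trend, each library left out, and a block by library number for TMZ. Same-numbered 36N libraries with and without TMZ had correlations of 0.019, 0.0371 and 0.0858 between their deviations from the group means, none over 0.1, so they were treated as unpaired.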

Additional observations from a re-analysis of the deposited data

How the results depend on the processing

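Depth is unknown, so it cannot be said how well low members were measured, and the filter decides which of them are tested. Over all genes, fits without the variance trend called 305 genes for 36N against 36S (599 in the report) and 203 for KD against 36N (425). Leaving out a library gave 188 to 508 genes for 36N against 36S, 591 to 2051 for KD against 36S, 116 to 1986 for KD against 36N, 8192 to 8901 for TMZ, 0 to 1 for 36N against 36S with TMZ and 8 to 34 for the interaction, which called 27 with a minimum of 50 and 19 with the replicate block. With the filter on 2 libraries the ranges were 637 to 2041 and 9187 to 9876 for KD against 36S and TMZ. KD against 36S called 637 and 654 genes under it without 36S library 2 and KD library 9. KD against 36N called 203, 184 and 326 without 36N libraries 4, 5 and 6 and 264, 2020 and 136 without KD libraries 7, 8 and 9. Of the members, KD against 36S called 1 of the 2 tested with a minimum of 50, and 2 without the trend. It called 0 to 5 with a library left out and 1 to 7 with the filter on 2 libraries. KD against 36N called 0 at a pseudocount of 0.5, without a filter, at a minimum of 50 (1 tested), at equal totals and without the trend. It called 0 to 5 with a library left out, under either filter. TMZ called all 3 tested at a minimum of 50, 2 to 8 with a library left out and 7 to 8 with the filter on 2 libraries. The replicate block called 8 members for TMZ, with Cd3d added, and 5189 genes as higher and 4796 as lower, and it changed no other member call. No member could be tested in the interaction at a minimum of 50.

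Some values near 0 changed sign. Klrd1 in KD against 36N (-0.0054) was 0.0004 at a pseudocount of 5, 0.1046 after quantile normalization and -0.1561 to 0.2104 with a library left out, with 0.0454 and 0.0591 without 36N libraries 5 and 6 under either filter. Gzmb in 36N against 36S with TMZ (0.0097) was -0.006 at equal totals and -0.2106 to 0.1507 with a library left out. With a library left out, Nkg7 in 36N against 36S was -0.6922 to 0.6526, and its interaction was -1.1245 to 0.2202. The cause of these changes was not tested.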
